A study of Mus musculus with 13 samples.

Results

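White adipose tissue of Fv2E-PERK mice was compared 12 h after injection of the ligand AP20187 or of its vehicle. The comparison rests on 6 of the 13 arrays of the study, 3 with AP20187 (titles Mouse_TG_WAT_AP_rep1 to 3) and 3 with vehicle. Vehicle arrays 1 and 2 are titled as white fat. Vehicle array 3 is titled Mouse_TG_BAT_Vehicle_rep1 and its tissue entry says brown fat, whereas its source name says white fat, and it was placed by the source name. All mice were male C57BL/6J, and their age is not given in the sources used here. AP20187 was injected intraperitoneally at 100 ng/g, and the vehicle was a mixture of ethanol, PEG-400 and Tween-20 in water. The protocol speaks of muscles although every sample is fat. The remaining arrays, 3 of untreated wild-type white fat and 4 of Fv2E-PERK brown fat with vehicle or AP20187, entered the fit to estimate the spread between arrays. The series title names the line mAP::Fv2E-PERK. The labels do not say which promoter drives the transgene, which cells carry it, or whether each array is a separate animal. The p-values therefore reflect only how much the 13 arrays of the fit differ within their groups. No wild-type mice received AP20187, and effects of the ligand and of the kinase cannot be told apart.

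PERK (gene Eif2ak3) is a kinase of the endoplasmic reticulum membrane that is activated when unfolded proteins accumulate. It phosphorylates the translation factor eIF2alpha, which slows protein synthesis in general and favours translation of the transcription factor ATF4. ATF4 and its partners then raise genes of amino acid uptake and synthesis, tRNA charging and secreted hormones such as FGF21, a programme called the integrated stress response (ISR). In Fv2E-PERK the kinase domain is fused to a domain that AP20187 brings together, so the kinase can be switched on without unfolded proteins.

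Levels below are log2 of the processed signal relative to the 75th percentile of the array, and changes are AP20187 minus vehicle on that scale. A gene is said to have risen or fallen where its adjusted p from limma, over 26132 features, was under 0.05. In bulk tissue, fewer cells of a type and less RNA per cell cannot be told apart.

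The AP20187 arrays were of lower quality than the vehicle arrays and 1 of them stood apart. Spots well above background made up 49.0 to 51.5% of the AP20187 arrays and 58.7 to 64.0% of the vehicle arrays. Stripes and patches of weak signal covered 6.12%, 6.69% and 1.64% of the spots of AP20187 arrays 1 to 3 and none on the vehicle arrays. The median standard deviation between arrays was 0.38 with AP20187 and 0.18 with vehicle (n = 3 each). AP20187 array 1 correlated with the vehicle arrays at 0.898 to 0.906, against 0.953 to 0.966 for AP20187 array 3.

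Transcripts of the epididymis, which lies against the epididymal fat pad, were abundant on AP20187 array 1 and present at a lower level on AP20187 array 2. The mean level of 37 epididymis markers was 6.53, -0.88 and -4.63 on AP20187 arrays 1 to 3, and -5.16 to -4.96 on the vehicle arrays. Of the 37, 37, 30 and 9 were well above background on AP20187 arrays 1 to 3, and 9 to 13 on the vehicle arrays. Leaving out AP20187 array 1 therefore does not remove all of these transcripts. Gpx5, a glutathione peroxidase secreted by the epididymis, measured 9.75, 2.93 and -3.60 with AP20187 and -7.09, -6.71 and -6.91 with vehicle. Male germ cell markers (10 genes) averaged 1.16, -3.27 and -4.52 with AP20187 and -1.11, -4.41 and -4.50 with vehicle. They were thus highest on AP20187 array 1 and next highest on vehicle array 1. On AP20187 array 1 the white adipocyte markers (6.65, against 7.37 to 7.40 with vehicle), macrophage markers (0.99, against 2.65 to 2.78) and endothelial markers (1.36, against 2.75 to 3.0) were low. Liver markers (12 genes) were highest on vehicle array 2, at 4.34, against 1.42 and 2.95 on vehicle arrays 1 and 3 and 1.73 to 2.59 with AP20187. Adipoq, the adipocyte hormone adiponectin, was high on all 6 arrays (8.25 to 9.46). The part of the carried-over transcripts and of the weak areas in the counts below was not tested beyond leaving out arrays or spots.

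**Figure D1:**
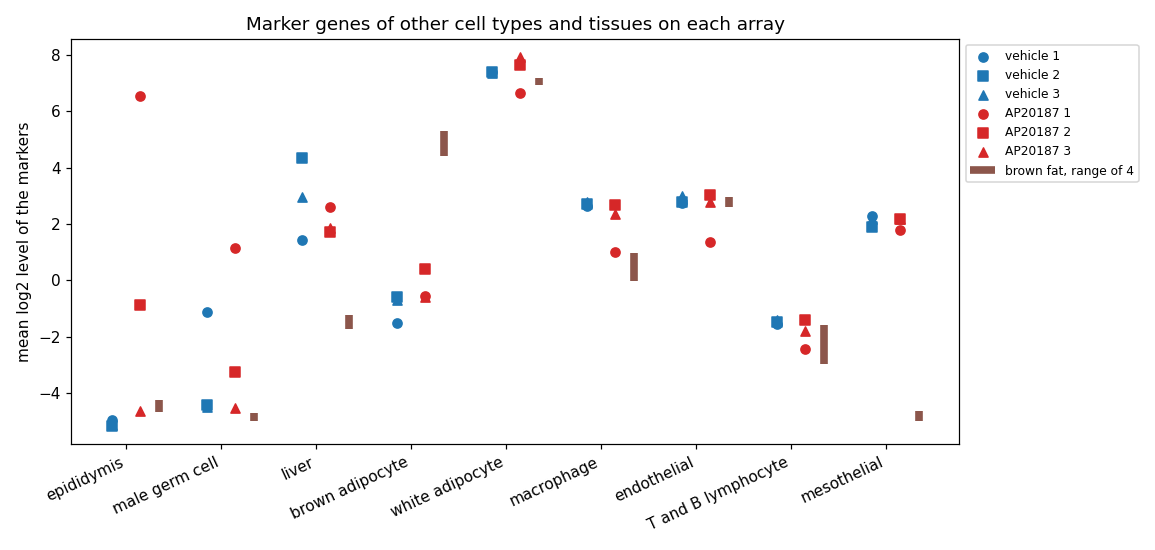
Mean log2 level of marker genes of 9 cell types or tissues (vertical axis, relative to the 75th percentile of the array) on each vehicle array (blue), each AP20187 array (red) and over the brown fat arrays (brown bar, lowest to highest of 4). Epididymis markers spread from -4.63 to 6.53 over the AP20187 arrays, and liver markers are highest on vehicle array 2, at 4.34.

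Vehicle array 3 measured as white fat. Ucp1, the uncoupling protein that defines brown fat, was -4.57 on it, against -7.23 and -5.28 on vehicle arrays 1 and 2 and 9.87 to 10.6 on the brown fat arrays. It correlated at 0.986 and 0.991 with vehicle arrays 1 and 2, and at 0.914 to 0.927 with the brown fat arrays. Eif2ak3 measured 1.40, 1.13 and 1.23 with AP20187 and 0.93, 1.16 and 1.04 with vehicle, and its groups overlapped (adjusted p = 0.33, limma). Whether its probe lies in the part that the transgene carries is not known.

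More features rose than fell. With AP20187, 1717 features rose (6.57%) and 606 fell (2.32%), and 58.2% of all features had a positive change, with a median of 0.13. These calls were fragile. When only the 6 arrays compared were fitted, limma called 0 features, with 5627 at an unadjusted p under 0.05 and a lowest adjusted p of 0.098. Leaving out vehicle array 1, which also confines the comparison to slide 2, left 1 rise and 11 falls, and all 50 genes that the naming rule gave among the calls then missed the threshold. Without vehicle array 2 there were 600 rises and 217 falls, without AP20187 array 2 there were 811 and 524, and without vehicle array 3 there were 488 and 217, of which 637 were also called with it. Without AP20187 array 1 there were 4231 rises and 954 falls, 2203 of them also called with it, and AP20187 array 3 alone gave 593 and 982. A fit of only the compared arrays without AP20187 array 1, chosen after the 0 had been seen, called 1936 rises and 673 falls. The balance of directions depended on the scaling: rises were 73.9% of the calls, but 56.7% with quantile scaling, 25.2% with the reference percentile drawn only from probes seen on every array, and 32.6% in the authors' value table. On all 4 scalings run on the scanner signals, 103 features rose (0.394%) and 95 fell (0.364%).

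**Figure D2:**
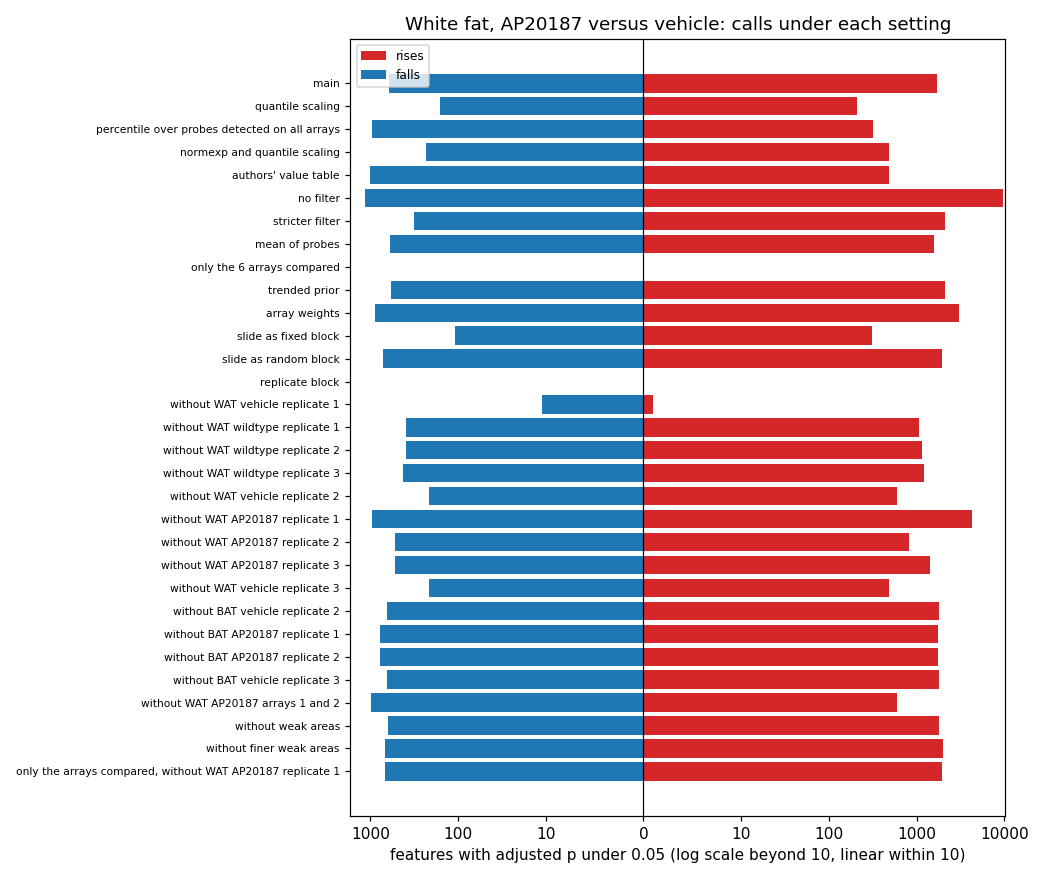
Number of features with a limma adjusted p under 0.05 under each setting, rises to the right (red) and falls to the left (blue), on an axis that is linear within 10 and logarithmic beyond. The main setting has 1717 rises and 606 falls, and there are 0 with only the 6 arrays compared and with the replicate block.

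Fgf21, the gene of the hormone FGF21 that acts on fat, liver and brain, had the largest rise of any named gene outside the epididymis set. Its level was -0.61, 0.40 and 0.44 with AP20187 and -4.67, -3.87 and -3.43 with vehicle. The lowest AP20187 array lay well above the highest vehicle array, and wild-type white fat (-5.09 to -3.90) lay with vehicle. The change was 4.07 (16.8-fold, SE 0.96 on the log2 scale, adjusted p = 0.030, limma). It was 4.41 without AP20187 array 1 and 4.43 for AP20187 array 3 alone, although for array 3 alone, a single array, it no longer passed (adjusted p = 0.105). Within slide 2 it was 3.73. Over all settings it ranged from 2.05 with normexp correction to 4.51, and its adjusted p from 0.012 to 0.12. It passed in 19 of 31 settings and missed without vehicle array 3 (0.069) and with quantile scaling (0.063).

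The promoter of Fgf21 holds the letters TGATGNAA, a form of the element to which ATF4 and C/EBP proteins bind as pairs. The same letters lie in the promoters of Asns, which makes asparagine, and Chac1, which degrades glutathione, 2 textbook ATF4 targets that did not pass the test here. They are shown because the genes share the element while their measured changes differ. Each window covers 250 bases upstream of the start in the direction of the gene, from RefSeq on GRCm38.p6, with the match in capitals (read on the opposite strand in Fgf21 and Chac1): chr7:45615491-45615740 (- strand), chr6:7693210-7693459 (- strand) and chr2:119350992-119351241 (+ strand).
Fgf21: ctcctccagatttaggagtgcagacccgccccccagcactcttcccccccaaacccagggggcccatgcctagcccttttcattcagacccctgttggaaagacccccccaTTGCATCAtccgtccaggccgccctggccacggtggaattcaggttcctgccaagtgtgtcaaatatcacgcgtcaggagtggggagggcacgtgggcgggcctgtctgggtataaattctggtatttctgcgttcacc
Asns: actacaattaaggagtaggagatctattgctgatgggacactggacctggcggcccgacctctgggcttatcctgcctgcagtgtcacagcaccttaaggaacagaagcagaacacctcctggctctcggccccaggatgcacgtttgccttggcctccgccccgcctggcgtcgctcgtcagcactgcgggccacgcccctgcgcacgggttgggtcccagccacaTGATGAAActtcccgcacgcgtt
Chac1: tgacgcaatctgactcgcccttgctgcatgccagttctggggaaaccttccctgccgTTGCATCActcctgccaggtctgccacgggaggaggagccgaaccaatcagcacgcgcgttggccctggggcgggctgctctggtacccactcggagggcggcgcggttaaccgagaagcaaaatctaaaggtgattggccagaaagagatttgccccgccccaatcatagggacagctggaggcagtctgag
The match begins 139, 23 and 193 bases before the start in Fgf21, Asns and Chac1. Over both strands, 3.45% of 32851 promoter windows held TGATGNAA. It was found in 6 of 18 genes of the ISR regulator list that had a promoter entry (Atf3, Chac1, Herpud1, Jdp2, Nupr1 and Vldlr). Here and below, a listed gene counts if any of its windows matches, whereas the shares are per window. These are unlike measures. The letters were chosen with the measurements known, and 3 other motifs were searched the same way. TCACNCCAC, a form of the sterol element, was in 1.05% of windows and in 1 of 17 cholesterol genes (Hmgcs1). CACGTG, an E-box, was in 6.02% of windows and in 5 of 16 clock genes (Bhlhe41, Ciart, Cry1, Per1 and Tef), but also in 4 of 17 cholesterol genes (Dhcr7, Hsd17b7, Insig1 and Sc5d) and 2 of 18 ISR regulators. TTATGNAA, a D-box form, was in 3.07% of windows, in 2 of 16 clock genes (Per1 and Per3) and in 2 of 18 ISR regulators. None of the 4 can match in the same frame as another, and a match describes these letters only.

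The ISR regulators themselves did not pass the test. Of 22 tested, 15 had a positive change, which 58.2% of all features had, and 0 rose and 0 fell by limma. On all AP20187 arrays, 5 lay above all vehicle arrays and 1 lay below, which 22.9% and 10.8% of all features did. The list median was 0.36, or 0.23 above the median of all features. Atf4 measured 6.71, 7.12 and 7.05 with AP20187 and 6.05, 6.06 and 6.11 with vehicle. Its groups did not overlap, by a gap larger than the spread of the vehicle arrays (1.85-fold, adjusted p = 0.12), and its other probe changed by 0.80. Gadd45a, a growth arrest gene, measured 2.08, 2.59 and 2.78 against 0.49, 0.78 and 0.62, a change of 1.85 with an adjusted p of 0.076. Ppp1r15a, the phosphatase subunit that restores translation, was 2.59, 2.54 and 2.62 against 1.83, 1.81 and 1.82 (adjusted p = 0.23). Each of these 3 genes was higher on all AP20187 arrays without passing the test. Nupr1 was the gene below vehicle, at 4.74, 5.63 and 5.73 against 5.78, 6.03 and 5.93. It did not pass in the main setting, but passed as a fall on 2 of the 4 scalings. Trib3, a pseudokinase of the pathway, was 1.67, 2.83 and 3.41 against 1.78, 2.07 and 2.49, and Ddit3, the gene of CHOP, was 1.09, 1.55 and 2.18 against 1.01, 1.47 and 1.39. Both overlapped, with AP20187 array 1 at or near the vehicle level. Chac1 was 1.48, 1.79 and 2.16 against 1.30, 1.02 and 1.09 (adjusted p = 0.36). Without AP20187 array 1, Atf5 (adjusted p = 0.02) and Cebpb (0.04) passed, 2 of 22 where 16.1% of all features rose, with Atf5 at 8.06 and 7.78 against 6.55, 6.82 and 6.61. Cebpg (-4.34 on AP20187 array 2, 1.15 and 2.16 on the others) lay in a weak area of that array.

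**Figure D3:**
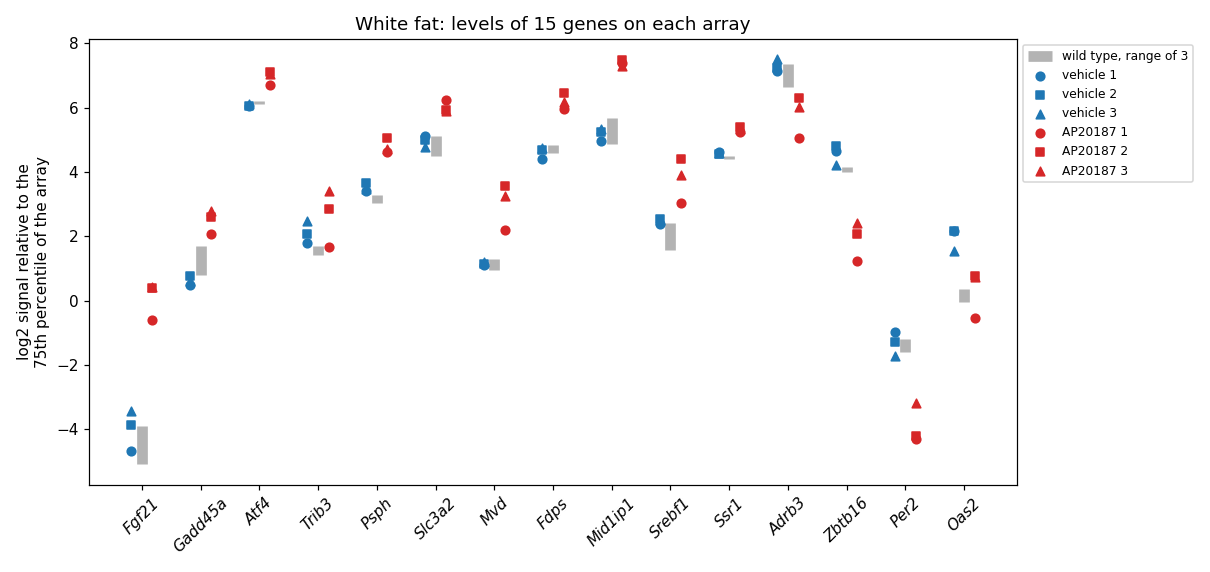
Log2 level of 15 genes (vertical axis, relative to the 75th percentile of the array) on each vehicle array (blue) and AP20187 array (red), with the range of the 3 wild-type white fat arrays as a grey bar. Fgf21 shows the widest gap, from -3.43 on the highest vehicle array to -0.61 on the lowest AP20187 array, and Trib3 overlaps.

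Of the ATF4-type metabolic genes, 3 passed. They were 1 of 13 tested synthesis genes, 1 of 9 transporters and 1 of 20 tRNA synthetases, where 6.57% of all features rose. Psph, which completes serine synthesis, measured 4.60, 5.05 and 4.71 with AP20187 and 3.40, 3.64 and 3.46 with vehicle. It rose 2.44-fold (SE 0.32, adjusted p = 0.036, limma), and its second probe changed by 1.38. Slc3a2, the heavy chain of several amino acid transporters, measured 6.23, 5.92 and 5.89 against 5.11, 4.99 and 4.77 and rose 2.08-fold (SE 0.22, adjusted p = 0.021). Sars, the seryl-tRNA synthetase, measured 4.95, 4.88 and 4.76 against 4.11, 4.31 and 4.23 and rose 1.57-fold (SE 0.15, adjusted p = 0.031). In all 3 the groups were apart. All 3 calls were lost with quantile scaling (0.087, 0.13 and 0.19) and without vehicle array 3 (0.10, 0.077 and 0.089). Asns was 5.55, 6.74 and 6.23 against 5.50, 5.42 and 5.65, and it overlapped through AP20187 array 1 (adjusted p = 0.22).

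Among the 13 tested genes of amino acid and one-carbon synthesis, 11 were positive, with a median of 0.65 that fell to 0.33 without AP20187 array 1. Mthfd2 (2.05, -0.36 and -0.18 against -1.0, -1.45 and -1.41) and Shmt2 (3.06, 1.16 and 1.29 against 0.80, 0.64 and 0.66), both of the mitochondrial folate pathway, were highest on AP20187 array 1. The transporter genes Slc7a5 (3.58, -1.91 and -0.69 against -1.32, -1.92 and -1.48) and Slc7a1 (4.23, 2.13 and 2.30 against 1.58, 1.62 and 1.82) followed the same order. On that array, where the epididymal transcripts were highest, these 4 genes stood far above both other AP20187 arrays. Of 9 transporter genes tested, 5 were positive and 1 rose, with a median of 0.22. Among 20 tRNA synthetases, 18 were positive, 13 lay above vehicle on every array and 1 rose, with a median of 0.60 (0.62 without AP20187 array 1, where 7 rose against 16.1% of all features). Mars1 and Rars, both negative, lay in weak areas.

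Hormones other than Fgf21 did not pass. Of 9 tested stress hormones and receptors, 5 were positive and Fgf21 alone rose. Of all features, 58.2% were positive and 6.57% rose. Gdf15, a stress-induced hormone, measured -0.55, -3.57 and -0.63 against -1.73, -2.32 and -2.25, and its array 2 spot lay in a weak area. Stc2, a stanniocalcin, was 1.56, 1.66 and 1.83 against 0.93, 1.06 and 1.04 (adjusted p = 0.12). Klb, the co-receptor for FGF21, changed by 0.37. Fgfr1, a receptor in the list, went the other way. It measured 4.56, 5.35 and 5.30 against 5.56, 5.52 and 5.62, below vehicle on every array. Its other probes, each with a spot in a weak area, changed by -1.25 and -0.68. Fgfr1 did not pass in the main setting, but passed as a fall on 3 of the 4 scalings. Leptin (Lep) was 3.21, 4.03 and 5.19 against 4.40, 4.37 and 4.00, with overlap and a weak area on AP20187 array 1.

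Genes of cholesterol synthesis and uptake had the highest median of the pathway lists with all 6 arrays. Without AP20187 array 1 the fatty acid and triglyceride list had 1.33 and the cholesterol list 1.32. These genes share the control of the SREBP transcription factors, which respond to low sterol. Of 25 tested, 24 were positive and 20 lay above vehicle on every array, 7 rose and 0 fell, and the median was 1.13. Over all features, 58.2% were positive, 22.9% lay above vehicle on every array and 6.57% rose. Mvd, of the mevalonate pathway, measured 2.21, 3.55 and 3.26 against 1.12, 1.13 and 1.21 and rose 3.62-fold (SE 0.50, adjusted p = 0.049, limma). Fdps, which makes farnesyl diphosphate, measured 5.94, 6.44 and 6.16 against 4.39, 4.68 and 4.73 and rose 2.99-fold (SE 0.32, adjusted p = 0.017). Neither overlapped with vehicle. Hsd17b7 (2.56-fold), Tm7sf2 (2.22-fold) and Ebp, all of the later sterol steps, rose as well, Ebp by 0.75 and outside the naming rule. Sqle (4.32, 4.74 and 4.49 against 3.0, 2.99 and 2.98) and Lss (1.55, 2.90 and 2.82 against 0.89, 0.79 and 0.76), which make and close squalene epoxide, were above vehicle on every array without passing. Cyp51 was 2.40 and 1.86 on AP20187 arrays 2 and 3 against -0.02 to 0.11, and its array 1 spot (-6.40) lay in a weak area. The list median was 1.32 without AP20187 array 1, with 13 rises where 16.1% of all features rose, 1.41 for array 3 alone, 1.17 without vehicle array 3, with 0 rises where 1.79% of all features rose, and 0.97 with quantile scaling. Fdps passed on 3 of 4 scalings and Mvd on 1.

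Lipid synthesis followed with wider spread. Of 22 tested genes of fatty acid and triglyceride synthesis, 20 were positive and 2 rose, with a median of 0.93 (1.33 and 11 rises without AP20187 array 1, where 16.1% of all features rose). With all 6 arrays, 58.2% of all features were positive and 6.57% rose. Mid1ip1, which promotes polymerisation of acetyl-CoA carboxylase, is not in the list and was named by its size. It measured 7.40, 7.49 and 7.28 with AP20187 and 4.95, 5.24 and 5.34 with vehicle, and rose 4.63-fold (SE 0.48, adjusted p = 0.022, limma). Srebf1, the SREBP gene of lipogenesis, measured 3.03, 4.41 and 3.89 against 2.40, 2.53 and 2.52 and rose 2.46-fold (SE 0.35, adjusted p = 0.049). Mlx, the partner of the carbohydrate-responsive factor ChREBP, was 3.51 and 3.22 on AP20187 arrays 2 and 3 against 1.86, 1.5 and 1.52 and rose 3.33-fold (adjusted p = 0.011). Its spot on array 1 was flagged as an outlier and dropped, and in the authors' value table the change was 0.06. Acly, which makes cytosolic acetyl-CoA, was 9.17, 10.1 and 9.77 against 8.38, 8.19 and 8.08, and Fasn, the fatty acid synthase, was 5.89, 7.14 and 6.98 against 5.89, 5.56 and 5.51. For Fasn, Acaca and Me1, AP20187 array 1 was the lowest of the AP20187 arrays. Scd1, a desaturase, changed by 0.19, and Fads1 lay in a weak area of array 1.

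Adrb3, the beta3-adrenergic receptor that starts lipolysis, fell. It measured 5.05, 6.30 and 6.02 with AP20187 and 7.13, 7.23 and 7.5 with vehicle, 2.82-fold lower (SE 0.31, adjusted p = 0.020, limma). Its groups were apart, its second probe changed by -1.45, and it passed on all 4 scalings, but not without vehicle array 3 (0.073). Gpd1, which makes glycerol phosphate for triglyceride, measured 9.09, 9.91 and 9.69 against 8.53, 8.70 and 8.50 and rose 1.98-fold (SE 0.23, adjusted p = 0.029). Of the 18 tested lipolysis and lipid droplet genes, 12 were positive, where 58.2% of all features were. Their median was 0.13 with all 6 arrays, equal to that of all features. It was 0.42 without AP20187 array 1 and -0.11 with quantile scaling. Relative to the median of all features, these were 0.23 and -0.21. Plin2, a droplet coat protein, was 6.54, 8.24 and 8.10 against 6.20, 6.55 and 6.04 without passing. The main probe of Lpl lay in a weak area of AP20187 array 2, and its other probe changed by 0.03.

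Genes of the secretory machinery had small positive changes, and several were largest on AP20187 array 1. Of 27 tested ER chaperone, translocon and degradation genes, 26 were positive and 17 lay above vehicle on every array, 10 rose and 0 fell, and the median was 0.64. Of all features, 58.2% were positive, 22.9% lay above vehicle on every array and 6.57% rose. The translocon, the channel through which new proteins enter the ER, supplied most of the named genes. Sec61g measured 7.02, 6.55 and 6.56 with AP20187 and 5.54, 5.77 and 5.74 with vehicle and rose 2.04-fold (SE 0.15, adjusted p = 0.011, limma). Ssr1 measured 5.24, 5.39 and 5.35 against 4.62, 4.54 and 4.58 and rose 1.68-fold (SE 0.11, adjusted p = 0.011), and its other probes changed by 0.55 and 0.40. Ssr2 (1.59-fold), Sec61a1 (1.80-fold) and Sec61b (1.76-fold) rose too. Outside the naming rule, the chaperones Hspa5 (0.86, measured on AP20187 arrays 1 and 3 only), Calr (0.84) and Dnajb9 (0.59), the disulfide isomerase P4hb (0.69) and the translocon gene Ssr3 (0.64) complete the 10. Calr was highest on AP20187 array 1 (6.37, against 5.63 and 5.35 on arrays 2 and 3 and 4.92 to 4.97 with vehicle), and Derl3, an ER degradation gene, was 4.12, -1.82 and -1.89. The mean level of the list was 4.56, 3.76 and 3.87 with AP20187 and 3.39 to 3.59 with vehicle. The list median was 0.38 without AP20187 array 1, where 10 rose against 16.1% of all features. None passed with quantile scaling, where 0.807% of all features rose and the median was 0.38. There were 4 rises without vehicle array 3, where 1.79% of all features rose.

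Glycolysis (19 of 19 positive, median 0.66, 2 rises) and the respiratory chain and citrate cycle (31 of 32 positive, median 0.50, 3 rises) moved with the scaling. Of all features, 58.2% were positive and 6.57% rose. Gapdh, a glycolytic enzyme, measured 8.98, 9.65 and 9.60 with AP20187 and 8.72, 8.74 and 8.58 with vehicle (1.66-fold, adjusted p = 0.040, limma). With quantile scaling its adjusted p was 0.53. Pkm, the pyruvate kinase, rose 1.81-fold, Cycs, cytochrome c, rose 1.88-fold and Cox4i1, a subunit of cytochrome oxidase, rose 1.55-fold. Ndufs1, a complex I subunit measured on AP20187 arrays 2 and 3, rose 1.55-fold, but changed by -0.08 in the authors' value table. Relative to the median of all features, the quantile-scaled list medians were 0.13 and -0.08. Without AP20187 array 1, 13 and 26 members rose, where 16.1% of all features did. Cpt1a, which admits fatty acids to the mitochondrion, was 3.61, 3.50 and 3.63 against 2.91, 3.0 and 2.83 and rose 1.59-fold (adjusted p = 0.039), the only one of 15 tested fatty acid oxidation genes to pass (12 positive, median 0.25). Without AP20187 array 1, 6 of the 15 rose and the median was 0.56.

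**Figure D4:**
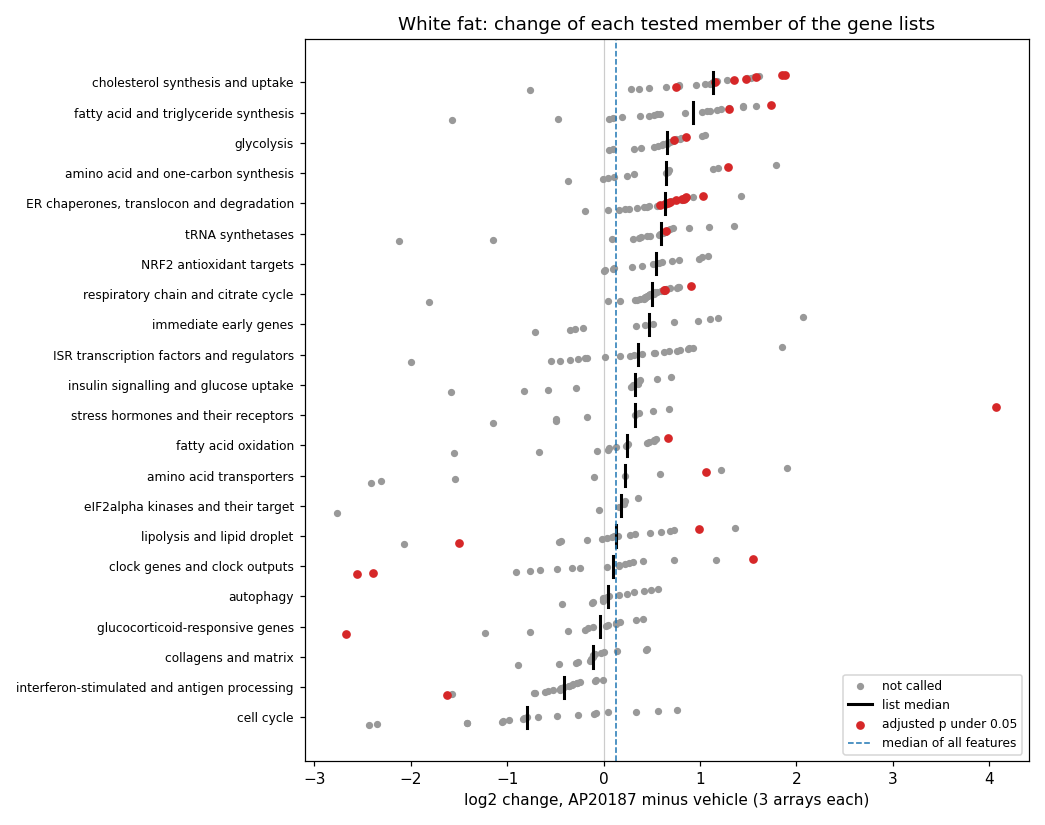
Log2 change (AP20187 minus vehicle, horizontal axis) of each tested member of 22 gene lists, with members past the threshold in red, list medians as black bars and the median of all features, 0.13, as a dashed line. Cholesterol synthesis and uptake has the highest median, 1.13, and cell cycle the lowest, -0.80.

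**Figure D5:**
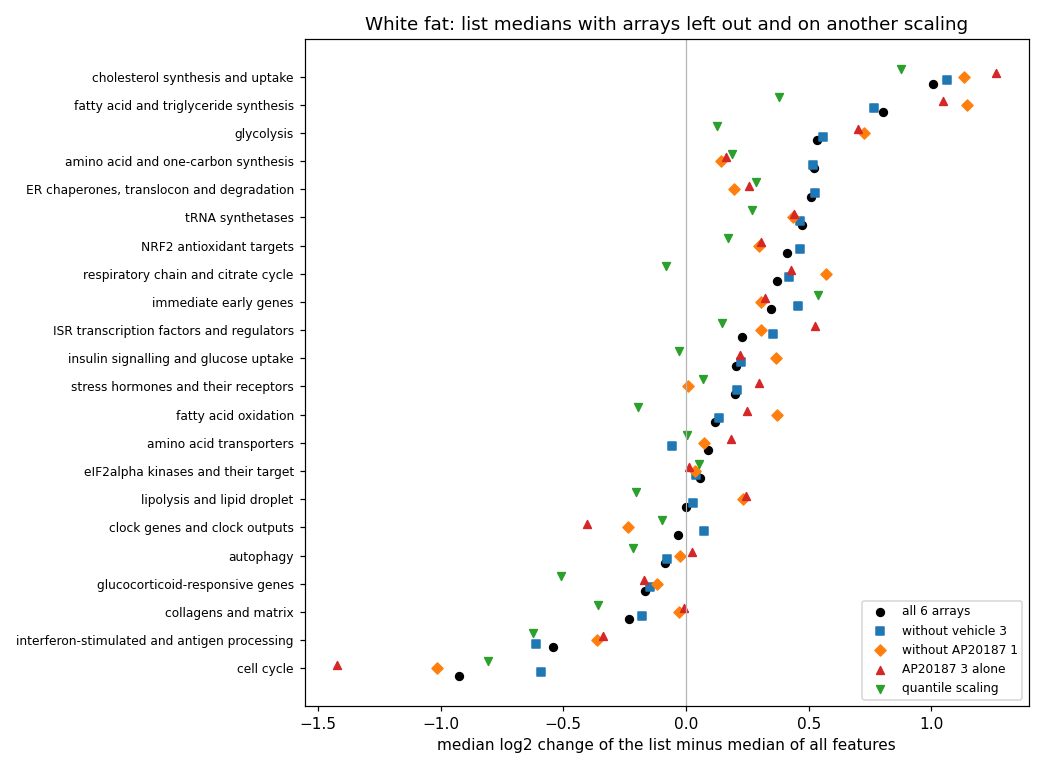
Median log2 change of each list minus the median of all features (horizontal axis) with all 6 arrays, with single arrays left out, for AP20187 array 3 alone and with quantile scaling. The cholesterol list lies between 0.88 and 1.26 throughout, whereas the respiratory chain list goes from 0.57 to -0.08.

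Per2 and Zbtb16 were among the falls seen on every scaling. Per2, a repressor of the circadian clock, measured -4.29, -4.21 and -3.17 with AP20187 and -0.98, -1.28 and -1.73 with vehicle. It was well above background on 1 AP20187 array and on all vehicle arrays, with a change of -2.56 (SE 0.43, adjusted p = 0.011, limma). Per3, its relative, measured -6.32, -5.72 and -4.15 against -2.66, -3.21 and -3.14, a change of -2.39 (SE 0.48, adjusted p = 0.018), and was likewise well above background on 1 AP20187 array. For both, the size of the fall rests partly on values at background. Bhlhe40, a clock repressor of another family, measured 1.78, 2.43 and 1.90 against 0.86, 0.05 and 0.54 and rose 2.94-fold (SE 0.36, adjusted p = 0.027). All 3 had groups apart. The rest of the clock list did not shift as a group: of 18 tested, 10 were positive and the median was 0.09, with Arntl at 0.30, Dbp at 0.03 and Nr1d1 at 0.16. Of all features, 58.2% were positive. The time of day of collection is not given in the sources used here.

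Zbtb16, a zinc finger gene induced by glucocorticoids, measured 1.24, 2.06 and 2.40 with AP20187 and 4.65, 4.82 and 4.23 with vehicle. It was 6.35-fold lower (SE 0.45, adjusted p = 0.011, limma), below wild type (4.01 to 4.15) on every array, and passed on all 4 scalings and without vehicle array 3 (0.044). Tsc22d3, another glucocorticoid-induced gene, was 3.89, 4.41 and 4.76 against 5.79, 5.78 and 5.17 and did not pass (adjusted p = 0.06). The other genes of that list were mixed: 7 of 14 were positive, where 58.2% of all features were, the median was -0.04, and Fkbp5 changed by 0.41.

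All 21 tested interferon-stimulated and antigen processing genes had a negative change, with a median of -0.41 and 1 fall. Of all features, 58.2% had a positive change and 2.32% fell. Of the 21, 5 were positive without AP20187 array 1, and the median was then -0.18. Oas2, an antiviral enzyme, measured -0.54, 0.76 and 0.73 with AP20187 and 2.16, 2.15 and 1.54 with vehicle (3.09-fold lower, SE 0.38, adjusted p = 0.028, limma). Wild-type white fat lay at -0.03 to 0.35, so for this gene the vehicle arrays were the high group and the AP20187 arrays lay on both sides of wild type. Ifi44 and Stat2 were likewise lower in wild type (-2.08 to -1.90 and 1.43 to 1.79) than on the vehicle arrays (-0.65 to -0.15 and 2.34 to 2.53). Their AP20187 values (-1.64, -0.91 and -0.56 for Ifi44, and 2.14, 2.19 and 2.06 for Stat2) were all above wild type. The mean level of the list was 0.69, 1.54 and 1.39 with AP20187, 1.60 to 1.95 with vehicle and 0.50 to 0.85 in wild type. Of the 21, 4 lay below vehicle on all AP20187 arrays, which 10.8% of all features did. Cell cycle genes had the lowest median, -0.80 (4 of 19 positive, 8 below vehicle on every array, 0 rises and 0 falls), and several, Top2a, Bub1, Plk1 and Mcm3, had a spot in a weak area. Among 14 tested macrophage markers 1 was positive and Cd163, a scavenger receptor, fell, where 2.32% of all features fell. It measured -5.17, -3.06 and -3.53 against -1.55, -2.09 and -2.29, and was above background on 2 AP20187 arrays. The macrophage median went from -0.57 to -0.15 without AP20187 array 1.

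Other large rises belonged to no list. Dusp4, a phosphatase of MAP kinases, measured 1.88, 3.05 and 2.69 with AP20187 and 0.32, 0.12 and 0.28 with vehicle and rose 4.92-fold (SE 0.53, adjusted p = 0.027, limma). Tiam2, an activator of the GTPase Rac, measured -0.33, 0.48 and 0.45 against -1.71, -1.60 and -1.26. It rose 3.30-fold (SE 0.23, adjusted p = 0.011) and passed in 28 of 31 settings, missing with only the 6 arrays compared (0.11). Aadacl2fm1 rose 5.14-fold, Tectb 3.76-fold and Smtnl2 3.46-fold. Utp14b was not well above background on the vehicle arrays and was at least 3.73-fold higher with AP20187. It entered the test only through the AP20187 arrays, as did Gpx5 and Spag11b. The 2 largest rises were Gpx5 and Spag11b, both epididymal: they rose at least 291-fold and 214-fold over the 3 arrays, and the values came chiefly from AP20187 array 1 (Spag11b 9.30, 2.37 and -3.92). "At least" sets the brighter group against the lowest signal of probes well above background on each dim array.

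Several of the genes with large falls were highest on vehicle array 2, the array with the highest liver markers. Bhmt, a liver enzyme of methionine metabolism, measured -1.28, -2.53 and -2.17 with AP20187 and -0.25, 4.18 and 1.46 with vehicle (13.8-fold lower, adjusted p = 0.039, limma). Cyp2c23, Serpina4-ps1 and Etnppl were likewise highest on vehicle array 2, at -1.27, -0.54 and -2.03 against -3.19 and below, -3.02 and below and -3.66 and below on the other vehicle arrays, and were not well above background with AP20187. Without vehicle array 2 none of these 4 passed (limma adjusted p of 0.055 to 0.081), and the change of Bhmt was -2.60. Liver markers were lower on vehicle array 1 (1.42) than on the AP20187 arrays (1.73 to 2.59). The same 4 genes were higher on vehicle array 1 than on every AP20187 array. The part of liver transcripts in these falls was not tested. Ctxn2, a small brain-type membrane protein gene, measured -1.76, -2.91 and -1.91 with vehicle, was not above background with AP20187, and was at least 3.97-fold lower. It entered the test only through the vehicle arrays, as did Polq, H2-Eb2, Cyp2c23, Serpina4-ps1 and Etnppl. Their calls rest on AP20187 values at background. Polq, a DNA polymerase, and H2-Eb2, an MHC class II gene, were at least 1.48-fold and 2.39-fold lower. Polq too was highest on vehicle array 2 (-4.58, -2.31 and -3.96 with vehicle). Dnaic2, a dynein subunit, measured -6.05, -3.64 and -3.85 against -1.54, -1.66 and -2.26, a change of -2.69 (SE 0.53, adjusted p = 0.016). It was well above background on 1 AP20187 array, and its array 2 spot lay in a weak area, so the size of the fall rests partly on values at background. Klhl24 measured -2.47, -5.80 and -3.23 against -0.77, -1.24 and -1.44, with its array 2 spot in a weak area. Without the spots in weak areas it still passed (0.018), whereas Diaph3, an actin nucleator with weak-area spots on AP20187 arrays 1 and 2, did not (0.32).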

How the data were processed

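The 13 1-colour Agilent arrays (build mm9 per the file headers) were deposited as scanner files, of which 6 are compared here. The deposited signal is an intensity, per the file headers from Feature Extraction 10.7.1.1, background-subtracted and detrended; the authors' value table holds the same intensity. Of 55681 probes, 26056 matched 1 RefSeq gene (GRCm38.p6) and 29625 none. Outlier spots were dropped, spots of a probe averaged, log2 values set relative to each array's 75th percentile, and the brightest probe used per gene. Features well above background on every array of either group entered limma 3.58.1 (R 4.3.3; 13 arrays, 5 group means, Benjamini-Hochberg). The code was run on simulated data with planted changes, independent values and 1 spread per gene for all groups. That simulation held no carried-over transcripts, weak areas or wider AP20187 spread, so it cannot vouch for the calls. Array number limits precision. Named genes were the 12 largest non-overlapping rises and falls, up to 5 members per list with the smallest p, and 15 fixed genes; some are given only as counts, and further list members were named after their values were seen. The 22 pathway and 13 marker lists, and the comparison itself, were chosen with earlier results of these data known. Alternatives covered scaling, background, filter, probe choice, slide, replicate block, weak areas and arrays left out. Slide 1 held vehicle 1 and wild type, slide 2 vehicle 2, 3 and AP20187. Same-numbered AP20187 and vehicle arrays deviated with correlations of 0.06, -0.04 and -0.04, so numbers were not taken as pairs.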

Additional observations from a re-analysis of the deposited data

How the results depend on the processing

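The numbers of rises and falls (1717 and 606) were 211 and 161 with quantile scaling, 319 and 947 with the percentile over probes seen on every array, 479 and 230 with normexp and quantile scaling, 484 and 1000 in the authors' value table, 9755 and 1142 with no filter, 3005 rises with array weights, 317 falls with the stricter filter, 309 and 110 with slide as a fixed block, and 593 and 982 without AP20187 arrays 1 and 2. Limma called 0 and 0 with only the 6 arrays compared (5627 at an unadjusted p under 0.05). With the replicate block it called 0 and 0 as well (5614 unadjusted), but the numbers do not pair the arrays. Leaving out 1 array gave 1 to 4231 rises and 11 to 954 falls. The percentile over detected probes moved the median of all features from 0.13 to -0.10. The change of Ndufs1 reversed, to -0.083, in the authors' value table. Of 50 named genes past the threshold, 8 stayed past it with quantile scaling, 9 with slide as a fixed block, 13 without vehicle array 3, 47 without AP20187 array 1, and 49 without the finer weak areas. Leaving out the finer weak areas (1992 and 690) and fitting only the compared arrays without AP20187 array 1 (1936 and 673) were chosen after seeing the data. The cause of these differences was not tested.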

Other observations

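Other lists are given by their counts, with the median of all features at 0.13. NRF2 antioxidant targets were all positive (14 of 14, 8 above vehicle on every array, median 0.54, 0 called by limma), with Gsr, glutathione reductase, at 4.15, 4.49 and 4.23 against 3.72, 3.69 and 3.92. Of all features, 58.2% were positive and 22.9% lay above vehicle on every array. Immediate early genes were 8 of 12 positive (median 0.47), and Ier3 measured 0.50, 0.60 and 0.91 against -0.22, -0.49 and -0.61 (adjusted p = 0.06, limma). Insulin signalling and glucose uptake genes were 8 of 12 positive (median 0.33), eIF2alpha kinases and their target 4 of 6 (0.18), autophagy genes 8 of 14 (0.04), and collagens and matrix 4 of 16 (-0.11). None of these 4 lists had a called member with all 6 arrays. The medians of the insulin, autophagy and collagen lists were 0.55, 0.16 and 0.16 without AP20187 array 1. The insulin and autophagy lists then had 2 rises each, of 12 and 14 tested, where 16.1% of all features rose. The insulin list had 1 fall, where 954 of 26208 features fell. Eif2s1, which codes for eIF2alpha, had its main spot in a weak area of AP20187 array 1 (-6.25, against 4.49 and 4.43 on arrays 2 and 3).

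Medians of the other marker lists were 0.14 for white adipocytes (12 tested), 0.44 for brown adipocytes (10), 0.68 for skeletal muscle (8), -0.04 for T and B lymphocytes (10), -0.43 for endothelium (12), -0.17 for fibroblasts and preadipocytes (11), -0.23 for mesothelium (9), -0.23 for erythroid cells (4) and 0.19 for smooth muscle (7). None of them had a called member with all 6 arrays. Several of these medians moved without AP20187 array 1: to 0.49 for white adipocytes (5 rises), 0.90 for brown adipocytes (2 rises, where 16.1% of all features rose), 0.003 for endothelium, -0.066 for fibroblasts, 0.13 for mesothelium and 0.17 for erythroid cells. Dio2, the deiodinase of brown fat, measured -0.27, 0.52 and 0.22 with AP20187 and -2.02, -1.67 and -0.78 with vehicle without passing (adjusted p = 0.31, limma).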
